A study of Rattus norvegicus with 8 samples.

Results

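The genes described are those of respiratory complex I, chosen by name: every gene that the array files call Nduf followed by further letters or digits. There were 46 such names among 26183 gene names on the array, read by 60 of 30328 probes. Of these, 39 were subunit names and 7 were assembly factor names beginning with Ndufaf. A further probe, filed under LOC690871, belongs to Ndufaf8 by its RefSeq accession but lies outside the naming rule. Of the 46 genes, 45 were measured above background in both arrays of at least 1 group and were tested, and the probe that stood for each was above background on all 8 arrays. The exception was Ndufaf2, a late-acting assembly factor, which was above background on 0 of 8 arrays.

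RNA was measured in N27 cells, a dopamine-producing line made by transforming mesencephalic cells of embryonic day 12 rats, on 8 single-colour Agilent arrays. The 4 groups had 2 arrays each: control cells, cells given 150 µM manganese (Mn) for 48 h, cells given 250 µM MPP+ for 48 h, and cells given 3-NPA, for which the labels state no dose, time or vehicle. All groups were the same line grown in RPMI medium and passaged by trypsin, and the labels name no vehicle for the controls. The labels do not say that the 2 arrays of a group came from separate cultures, so the p-values measure the spread between these arrays, which may be technical. MPP+ is known as an inhibitor of complex I itself, and 3-NPA as an inhibitor of succinate dehydrogenase, the enzyme of complex II.

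Complex I takes electrons from NADH, passes them along a chain of iron-sulphur clusters to ubiquinone and pumps protons across the inner mitochondrial membrane. Its core subunits carry the catalysis. Those encoded in the nucleus form the arm that reaches into the matrix, with an electron input module and a quinone module, and those encoded in the mitochondrion lie in the membrane arm. Accessory subunits surround the core, and assembly factors help to build the enzyme without being part of it. In dopaminergic neurons a loss of complex I activity has long been linked to Parkinson's disease. The array held 7 of 7 nuclear-encoded core subunits and, under their usual names, 0 of 7 mitochondrially encoded ones, so the latter were not analysed here.

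Levels are log2 intensities relative to the 75th percentile of their array, and a difference of 1 is 2-fold. Because probes differ in brightness, levels were compared between arrays and never between genes. A gene was called where the limma adjusted p over all 16908 genes tested was below 0.05. In bulk RNA, fewer cells of a type and less RNA per cell cannot be told apart. The 8 arrays shared a single slide and scan. Control and Mn arrays lay in row 1 of that slide, and MPP+ and 3-NPA arrays in row 2. Image extraction took place in 2 runs, the second of which held 3-NPA alone. Control and MPP+ arrays lay in columns 1 and 2, and Mn and 3-NPA arrays in columns 3 and 4. Row, column and extraction run therefore cannot be told apart from 3-NPA when it is set against control, nor row from MPP+ or column from Mn. Against MPP+, 3-NPA shares the row but cannot be told apart from column and run, and against Mn it shares the columns but not the row or run. From 32711 to 41354 of 58717 spots were well above background on an array, with the 2 controls lowest. Of the markers of the labelled cell type, Th, Slc18a2 and Nr4a2 were above background on all 8 arrays, and Slc6a3 and Foxa2 on 0. Ddc and Lmx1b were above it on at most 6 arrays, Aldh1a1 on 5 and Pitx3 on 4. Of the neuronal genes, Map2 and Tubb3 were above it on all 8 arrays, and Snap25, Syp and Stmn2 on 0.

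Against control, 0 of 45 complex I genes were called with Mn, where 7.66% of all genes were. With MPP+, 3 of 6 assembly factors rose and 0 of 39 subunits were called, beside 13.9% of all genes. With 3-NPA, 13 subunits and 1 assembly factor fell and 0 rose, beside 38.3% of all genes called. The toxins share their control arrays, so these counts are not independent of each other.

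**Figure D1:**
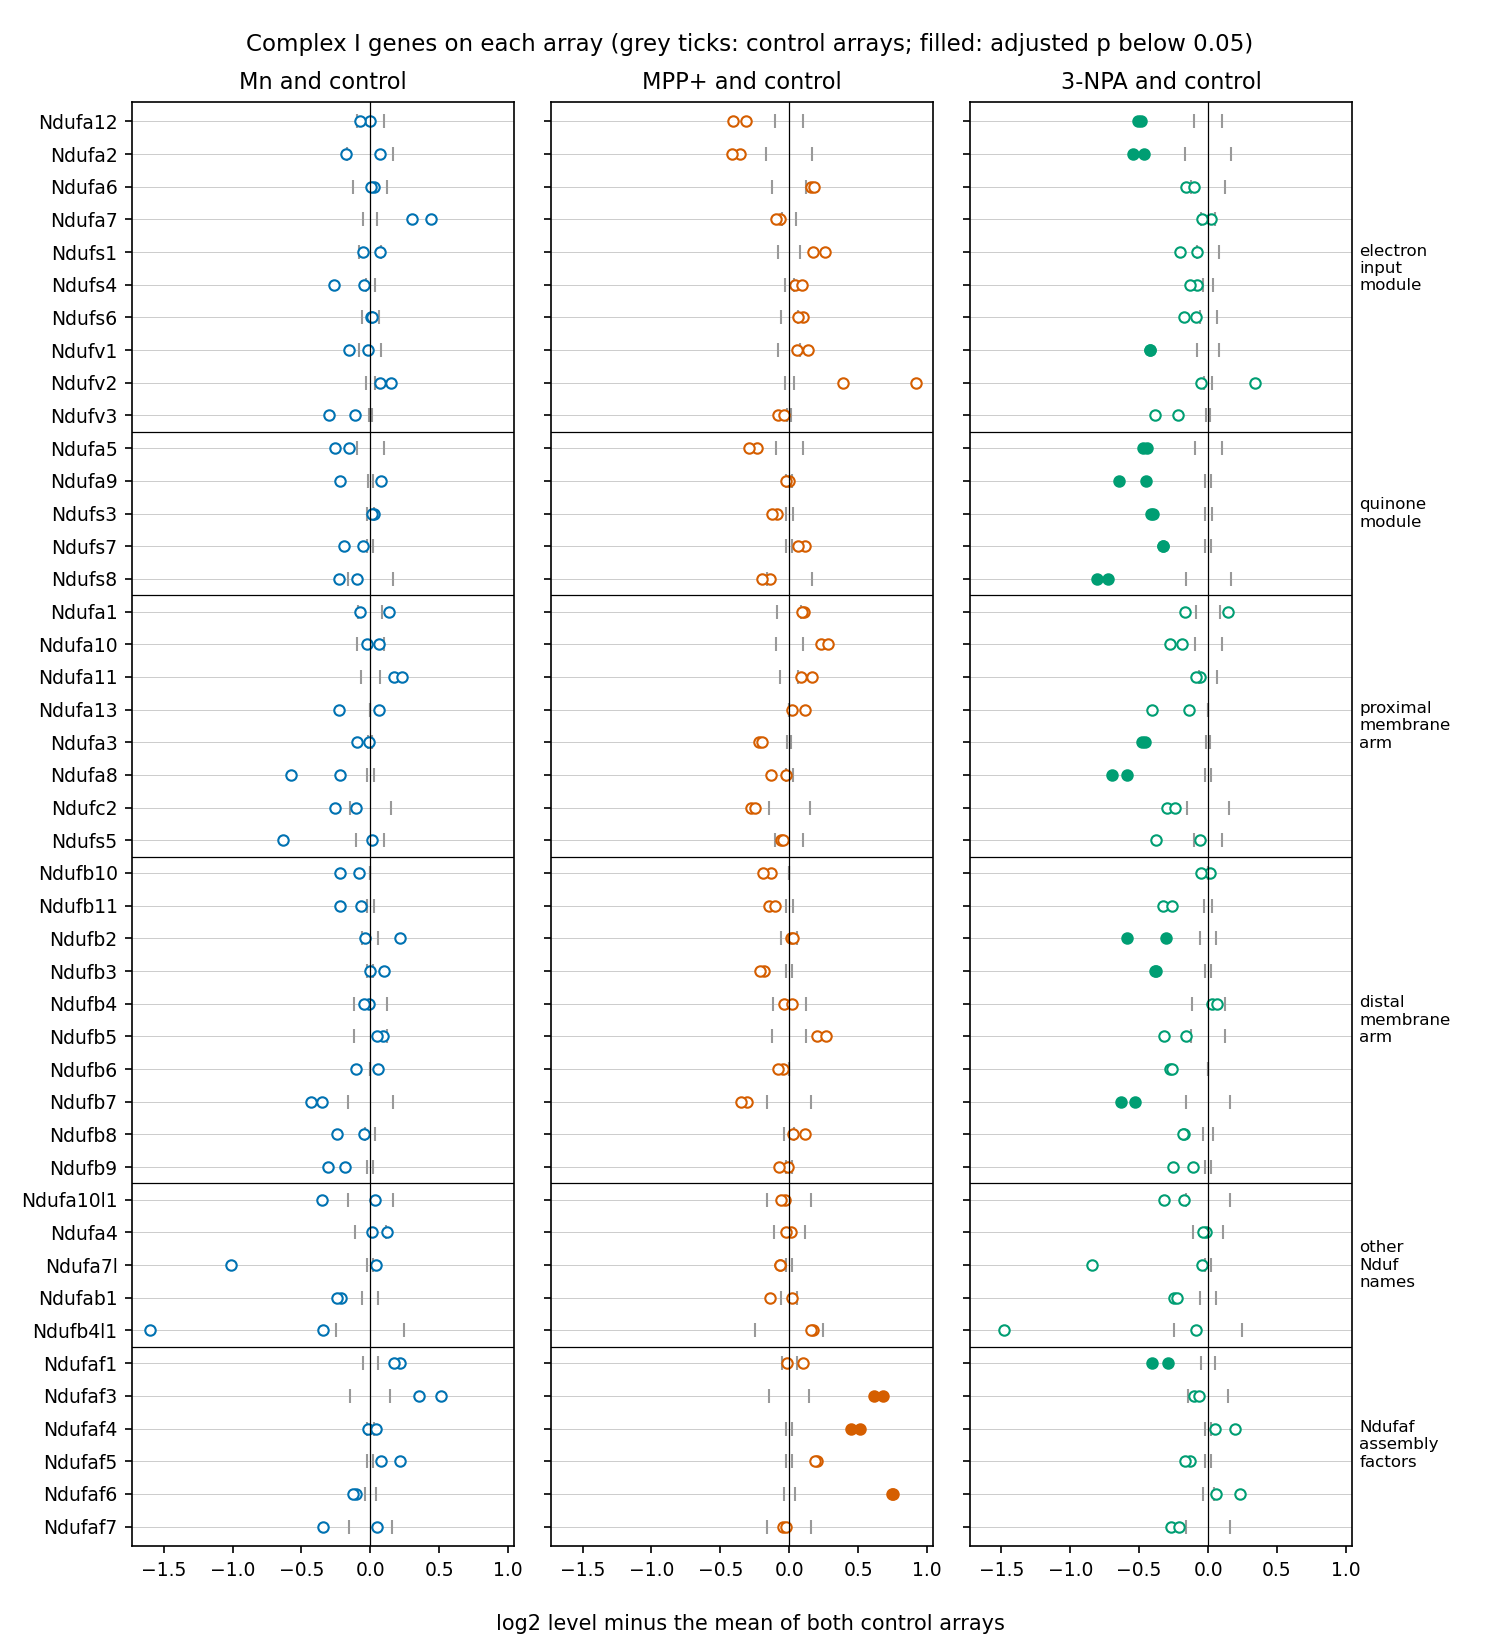
Each row is a complex I gene and each panel 1 toxin; points are its 2 arrays and grey ticks the 2 control arrays, as log2 level minus the mean of the controls. Filled points mark adjusted p below 0.05: none for Mn, Ndufaf3, Ndufaf4 and Ndufaf6 to the right for MPP+, and 14 genes to the left for 3-NPA.

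Manganese left no complex I gene past the threshold. In Mn against control, where 7.66% of all genes tested were called, 0 of 45 complex I genes passed by limma, and at an unadjusted p under 0.05 there were 2 higher and 3 lower. The median difference was -0.07 over the 39 subunits and 0.08 over the 6 assembly factors, beside -0.02 over all genes tested. The subunit median turned to 0.01 with quantile normalization and to 0.0028 with scaling to each array's median. Below both controls on both arrays lay 28.9% of the 45 genes, beside 25.1% of all genes, and above both lay 13.3%, beside 25.4%.

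The core subunits moved little with Mn. For Ndufs1, which holds several of the iron-sulphur clusters of the electron input module, the difference was 0.01 with a 95% interval of -0.25 to 0.27. For Ndufv1, which binds NADH and the flavin, it was -0.08, with an interval of -0.33 to 0.16. These intervals bound what 2 arrays a group can show and do not establish that the levels were equal. Ndufs4, whose loss in mice causes a Leigh-like encephalopathy, stood at 4.11 and 4.17 in control, 4.09 and 3.88 in Mn, 4.18 and 4.23 in MPP+ and 4.06 and 4.01 in 3-NPA. Its differences from control ran from -0.15 in Mn to 0.07 in MPP+, and none passed (limma adjusted p from 0.396 to 0.693).

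The gene nearest to a call with Mn was Ndufa7, an accessory subunit of the electron input module. Its levels were -1.75 and -1.86 in control and -1.36 and -1.504 in Mn, so that the groups did not overlap. The difference was 0.37 ± 0.0948 (SE), limma adjusted p = 0.0720. The largest positive difference was that of Ndufaf3, at 0.43 (adjusted p = 0.0951), whose levels are given with the assembly factors. With probes kept only where above background on all 8 arrays, Ndufa7 passed (1 of 45 called), and without control replicate 2 Ndufb7 did. The most negative was that of Ndufb4l1, at -0.97 (adjusted p = 0.333), whose Mn arrays read 0.62 and 1.87 against 1.97 and 2.47 in control. Ndufb4l1 was just as uneven in 3-NPA, at 0.735 and 2.13, and even in MPP+, at 2.39 and 2.38. The 2 spots of its probe disagreed on the low arrays, with an SD of 1.41 on Mn replicate 1 and 1.40 on 3-NPA replicate 1. On replicate 2 their SD was 0.52 in Mn and 0.598 in 3-NPA, against 0.067 to 0.15 on the control and MPP+ arrays. Its differences therefore rest on spots that did not agree. The low arrays of Mn and 3-NPA shared a column of the slide. Ndufa7l, read by a single spot, was low on Mn replicate 2 and 3-NPA replicate 2 (1.90 and 2.07, against 2.85 to 2.95 on the other 6 arrays), which shared another column. Ndufs5, a small subunit of the proximal membrane arm, was lowest on the same arrays as Ndufa7l (5.001 and 5.25, against 5.53 to 5.74 on the others). The 2 spots of that Ndufs5 probe had SDs of 0.32 and 0.29 on those arrays (0.053 to 0.19 on the others). A second Ndufs5 probe was not set apart there, at 4.98 and 4.81, against 4.77 to 5.14 on the others. The part of slide position in these 3 genes was not tested.

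In 3-NPA, 14 of 45 complex I genes fell and 0 rose, beside 16.0% of all genes tested called lower, 22.3% called higher and 38.3% called in either direction. The 13 subunits came from each of the 4 modules: 3 of 10 of the electron input module, 5 of 6 of the quinone module, 2 of 8 of the proximal membrane arm and 3 of 10 of the distal membrane arm. Of 5 genes with other Nduf names, 0 were called. The median difference over the 39 subunits was -0.27, and it was -0.48 over the quinone module, -0.14 over the electron input module, -0.25 over the proximal and -0.26 over the distal membrane arm, beside 0.05 over all genes. On both 3-NPA arrays, 71.1% of the 45 genes lay below both controls and 4.44% above both, beside 31.9% and 39.9% of all genes. Among the 39 subunits, 37 had a difference below 0.

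Under each of the other scalings tried (normexp background correction, quantile normalization, the median of each array and the deposited value table), the subunit median in 3-NPA was below 0 and below that of all genes. Scaling to each array's median moved all genes by -0.14 in 3-NPA and by 0.11 in MPP+. Relative to the median of all genes, the subunit median in 3-NPA was -0.32 as reported, -0.23 with normexp and -0.18 with quantile normalization. Scaling to each array's median cannot change this relative value, because it and the reported scaling each subtract a single value per array.

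**Figure D2:**
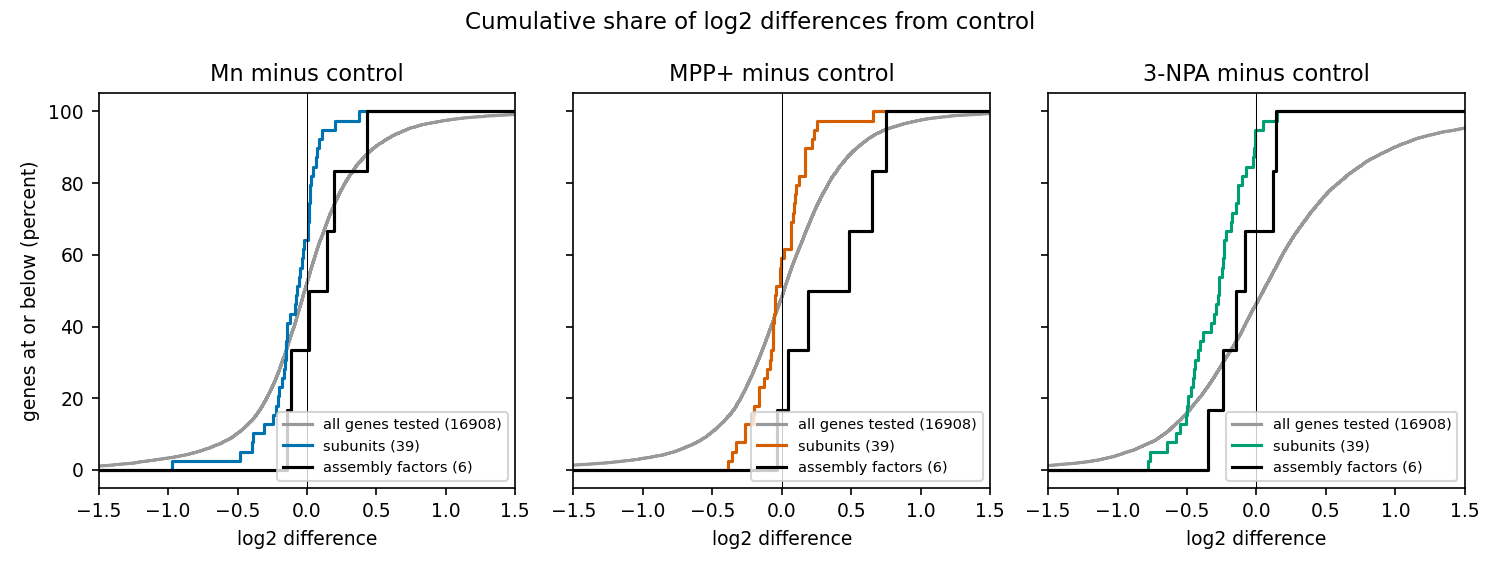
Cumulative share of genes (vertical, percent) at or below a log2 difference from control (horizontal), for all 16908 genes tested, 39 subunits and 6 assembly factors. The curve of the subunits runs to the left of that of all genes over most of its length in the 3-NPA panel, with medians of -0.27 and 0.05, and the curve of the assembly factors runs to the right in the MPP+ panel, with medians of 0.34 and 0.02.

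Of the 7 core subunits, 4 fell with 3-NPA. Ndufs8, which carries iron-sulphur clusters next to the quinone site, read 0.71 and 0.38 in control, 0.32 and 0.45 in Mn, 0.41 and 0.35 in MPP+ and -0.26 and -0.18 in 3-NPA. Both 3-NPA arrays lay below all 6 others. The fall was 1.70-fold, a difference of -0.77 ± 0.131 (SE), limma adjusted p = 0.00651, the smallest among complex I genes in this comparison.

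Ndufs3, a core subunit of the quinone module, read 3.17 and 3.22 in control, 3.22 and 3.20 in Mn, 3.11 and 3.07 in MPP+ and 2.78 and 2.80 in 3-NPA. The 2 arrays of each group lay close together and both 3-NPA arrays lay below all 6 others, and the difference in 3-NPA was -0.41 ± 0.0798 (adjusted p = 0.0106). Ndufs7, which holds the last cluster before the quinone, read 3.23 and 3.19 in control, 3.15 and 3.02 in Mn, 3.32 and 3.27 in MPP+ and 2.88 on both 3-NPA arrays. Its difference in 3-NPA was -0.33 ± 0.0889 (adjusted p = 0.0305). Ndufv1 read 4.34 and 4.50 in control, 4.41 and 4.27 in Mn, 4.48 and 4.56 in MPP+ and 3.999 and 3.998 in 3-NPA, and differed by -0.42 ± 0.101 (adjusted p = 0.0212).

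Ndufs1 and Ndufv2 did not pass. Ndufs1 read 1.92 and 2.09 in control, 2.08 and 1.95 in Mn, 2.26 and 2.18 in MPP+ and 1.801 and 1.921 in 3-NPA, where the higher array all but met the lower control at 1.924, a difference of -0.14 in 3-NPA (adjusted p = 0.325). Ndufv2, an iron-sulphur subunit beside Ndufv1, read 3.90 and 3.96 in control, 3.999 and 4.08 in Mn, 4.32 and 4.85 in MPP+ and 3.88 and 4.27 in 3-NPA. Its difference in 3-NPA was positive (0.15, adjusted p = 0.601), and it was the largest positive difference of any complex I gene there.

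**Figure D3:**
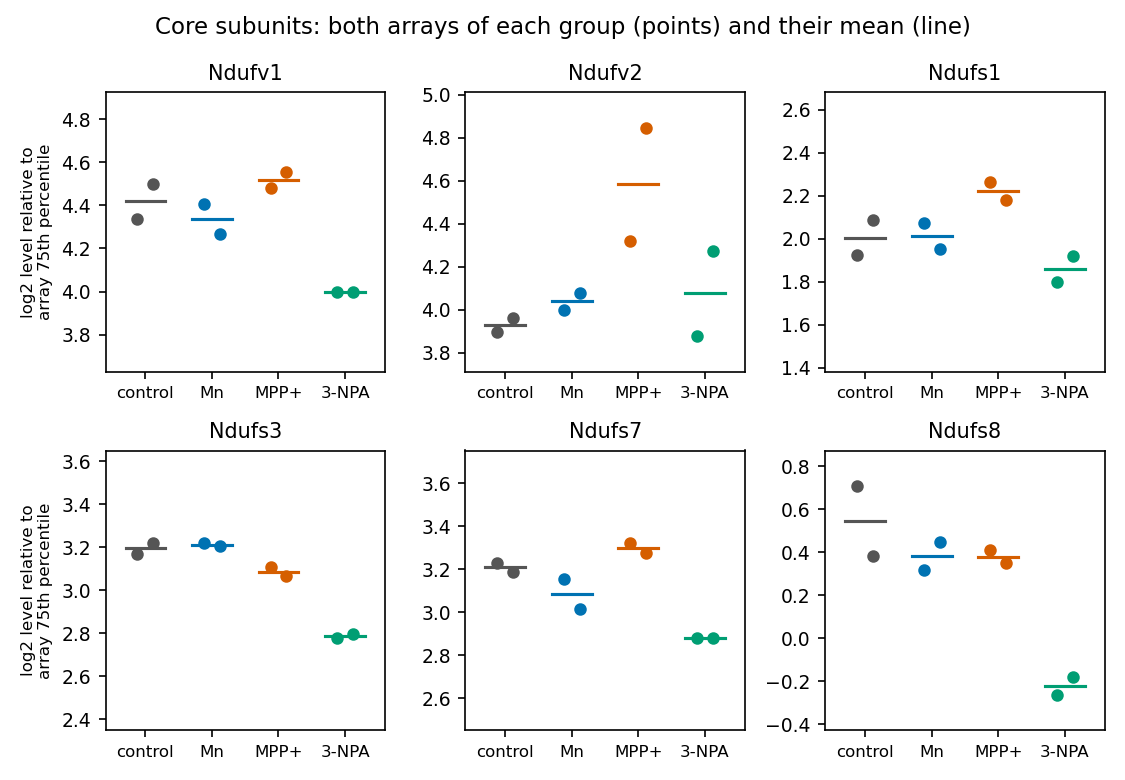
Log2 level relative to the array's 75th percentile (vertical) of 6 nuclear-encoded core subunits in each group; points are the 2 arrays and lines their mean, and vertical scales differ between panels. Both 3-NPA arrays lie below all 6 others for each of these but Ndufv2, and for Ndufs1 only just (1.921 against 1.924 in a control).

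The promoters of the core quinone-module subunits that fell together are shown with letters of motifs known from nuclear genes of mitochondrial proteins in capitals. Each is 250 bases before to 50 bases after the gene's start, from RefSeq on GRCr8. Of the 45 genes tested, 39 had an entry. The motifs searched, on both strands, were GCGCA and GCGC separated by any base (NRF1), CCGGAA (ETS factors, GABP among them), AAGATGGC (YY1) and AAGGTCA (oestrogen-related receptors), and none overlapped another kind in these windows. Ndufs3 lies at chr3:97339605-97339904 on the minus strand, Ndufs7 at chr7:10110449-10110748 on the minus strand and Ndufs8 at chr1:210573649-210573948 on the minus strand. In capitals, Ndufs7 has CCGGAA on either strand and AAGATGGC, Ndufs8 has CCGGAA on the reverse strand, and Ndufs3 has no match.
Ndufs3: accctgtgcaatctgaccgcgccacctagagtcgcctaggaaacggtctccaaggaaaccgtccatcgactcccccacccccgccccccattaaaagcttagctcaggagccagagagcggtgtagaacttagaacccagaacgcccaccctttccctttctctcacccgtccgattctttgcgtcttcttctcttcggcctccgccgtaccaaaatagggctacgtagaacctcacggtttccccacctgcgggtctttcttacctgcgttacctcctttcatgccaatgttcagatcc
Ndufs7: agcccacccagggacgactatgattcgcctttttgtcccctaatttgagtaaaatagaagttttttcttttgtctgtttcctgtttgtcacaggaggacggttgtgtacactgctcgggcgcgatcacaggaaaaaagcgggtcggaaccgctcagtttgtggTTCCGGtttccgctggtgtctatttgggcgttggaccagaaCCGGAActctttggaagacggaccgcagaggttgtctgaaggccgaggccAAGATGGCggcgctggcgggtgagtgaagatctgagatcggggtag
Ndufs8: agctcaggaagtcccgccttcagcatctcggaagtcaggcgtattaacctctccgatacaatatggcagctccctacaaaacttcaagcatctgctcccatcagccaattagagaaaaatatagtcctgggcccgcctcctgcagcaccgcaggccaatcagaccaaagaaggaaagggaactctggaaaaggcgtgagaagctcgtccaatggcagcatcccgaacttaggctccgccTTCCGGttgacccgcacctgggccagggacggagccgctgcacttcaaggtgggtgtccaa

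Over the complex I promoters, 9 of 39 held the NRF1 motif (23.1%, beside 4.25% of all 33469 promoters in the table), 12 held the ETS motif (30.8% beside 15%), 8 the YY1 motif (20.5% beside 3.17%) and 4 the receptor motif (10.3% beside 4.61%). The 39 belong to genes tested on the array, while the 33469 were not limited to tested genes, so the shares compare unlike sets. These are matches of letters and describe neither a site in use nor a cause.

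Among accessory subunits of the matrix arm, Ndufa12, which takes the place that the assembly factor Ndufaf2 holds earlier, read 4.998 and 5.20 in control, 5.10 and 5.02 in Mn, 4.78 and 4.69 in MPP+ and 4.61 and 4.59 in 3-NPA. It fell in 3-NPA by 0.50 on the log2 scale (adjusted p = 0.0123), and was the subunit nearest to a call in MPP+ (-0.36, adjusted p = 0.0695). Ndufa5 and Ndufa9, accessory subunits of the quinone module, differed by -0.46 and -0.55 in 3-NPA (adjusted p = 0.0164 and 0.0197). For Ndufa5 the arrays were 6.34 and 6.54 in control, 6.29 and 6.18 in Mn, 6.20 and 6.15 in MPP+ and 5.99 and 5.97 in 3-NPA. The levels of all 3 toxins lay below both controls for this gene, but only 3-NPA passed. Ndufa9, whose probe has a single spot, read 2.70 and 2.66 in control, 2.46 and 2.76 in Mn, 2.68 and 2.66 in MPP+ and 2.04 and 2.23 in 3-NPA, with the 3-NPA arrays below all others. Ndufa2, a thioredoxin-like subunit of the electron input module, read 2.41 and 2.74 in control, 2.40 and 2.65 in Mn, 2.22 and 2.16 in MPP+ and 2.03 and 2.11 in 3-NPA. It differed by -0.51 in 3-NPA (adjusted p = 0.0382).

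In the membrane arm, Ndufa8 and Ndufb7, small proteins with paired cysteines on the intermembrane side, had the most negative differences. Ndufa8 read 1.91 and 1.96 in control, 1.36 and 1.72 in Mn, 1.80 and 1.91 in MPP+ and 1.24 and 1.34 in 3-NPA, a difference of -0.64 ± 0.137 in 3-NPA (adjusted p = 0.0139). Ndufb7 read 5.21 and 4.88 in control, 4.70 and 4.61 in Mn, 4.74 and 4.69 in MPP+ and 4.51 and 4.42 in 3-NPA, a difference of -0.58 ± 0.127 (adjusted p = 0.0153). On all 6 toxin arrays Ndufb7 lay below both controls. Without control replicate 2, the lower of the 2 controls, Ndufb7 was called in Mn (-0.55, adjusted p = 0.0468) and in MPP+ (-0.49, adjusted p = 0.0467) as well.

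Ndufa3, a small membrane subunit, read 3.72 and 3.69 in control, 3.69 and 3.604 in Mn, 3.485 and 3.51 in MPP+ and 3.22 and 3.24 in 3-NPA, a difference of -0.47 (adjusted p = 0.00710). Ndufb3 read 5.60 and 5.64 in control, 5.71 and 5.61 in Mn, 5.43 and 5.41 in MPP+ and 5.24 and 5.23 in 3-NPA, and for Ndufa3 and Ndufb3 alike the 3-NPA arrays lay below all others. Ndufb3 and Ndufb2, subunits of the distal membrane arm, differed by -0.38 and -0.45 (adjusted p = 0.0154 and 0.0472). The 2 spots of the Ndufb2 probe were uneven on 3-NPA replicate 1 (SD of 0.33) and Mn replicate 1 (0.31). On the other arrays their SD ran from 0.0033 to 0.22. Ndufb2 was the last gene inside the threshold, and Ndufb11, at -0.29 and adjusted p = 0.0520, the first outside it. Among the members that did not pass, Ndufa4, a protein now regarded as part of cytochrome c oxidase, read 6.14 and 6.36 in control, 6.37 and 6.27 in Mn, 6.26 and 6.23 in MPP+ and 6.24 and 6.22 in 3-NPA. Its differences ran from -0.03 in 3-NPA to 0.07 in Mn. Ndufb4l1 had the most negative difference of all in 3-NPA (-0.78, adjusted p = 0.315), on the uneven arrays given above. Ndufa4l2 had no probe by that name and was not analysed here.

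The calls of 3-NPA depended on both of its arrays. Without 3-NPA replicate 1, 1 of 45 genes was called, without replicate 2, 3, and without control replicate 2, 6. Ndufs8 was called each time 1 of the 8 arrays was left out. None of the 14 falls reached 2-fold. With only the 4 arrays of the pair, 6 were called. Of the 14, 5 (Ndufa2, Ndufa3, Ndufa5, Ndufa12 and Ndufb3) have like-named genes or pseudogenes in the RefSeq table, and signal from those copies was not tested.

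Other respiratory complexes, given by lists, are set beside this for their own values in 3-NPA, where 16.0% of all genes were called lower and 22.3% higher. Of 16 ATP synthase genes, 5 fell and 0 rose, with a median of -0.34, among them Atp5j (-0.71), Atp5g3 (-0.97) and Atp5c1 (-0.49). Of 8 complex III genes, 3 fell and 1 rose, with a median of -0.19: Uqcrc1 (-0.57) and Uqcrc2 (-0.60) were among the falls, and Uqcrq rose (0.47). Of 4 succinate dehydrogenase genes, Sdhb, the iron-sulphur subunit, fell (-0.41, adjusted p = 0.0171), and the median was -0.23. Of 14 genes with cytochrome c oxidase names, 0 fell and 2 rose, Cox6a2 (3.47) and Cox7a2l (0.36), with a median of 0.07. That list was taken by symbol and includes Cox6c-ps1, a pseudogene by its name, so it may hold genes that are not subunits of the enzyme. Differences between these lists and complex I were not tested.

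Some marker genes of cell types were called in 3-NPA against control, where 22.3% of all genes were called higher and 16.0% lower. In the neuron list Tubb3 rose by 1.77 and Map2 fell by 0.80 on the log2 scale, and the summed level of these 2 was 0.68 and 0.74 in control and 2.25 and 2.09 in 3-NPA. Of 7 dopaminergic genes 2 rose, Ddc and Pitx3, with sums of -0.50 and -0.55 in control and -0.21 and -0.24 in 3-NPA. Ddc and Pitx3 were above background on at most 6 and 4 arrays, so their rises may start from background. In the microglia list, 3 of 5 tested genes rose in 3-NPA, and their summed level was -1.61 and -1.05 in control and -0.83 and -0.85 in 3-NPA. In the fibroblast list 2 of 3 rose and 1 fell, with sums of 0.70 and 0.53 in control and 1.67 and 1.59 in 3-NPA, and Dcn was above background on 0 arrays. In the astrocyte list 1 of 2 rose (sums of -2.275 and -2.31 in control, -1.86 and -1.83 in 3-NPA), with S100b above background on 0 arrays. In the oligodendrocyte list 1 of 2 rose (sums of -5.015 and -5.40 in control, -4.105 and -4.15 in 3-NPA), with Olig2 on 0 arrays. The 2 tested there, Mbp and Mog, were above background on at most 3 and 6 arrays, so this rise too may start from background. Of 2 progenitor genes, Nes rose (sums of 3.69 and 3.485 in control, 3.945 and 3.88 in 3-NPA), with Sox2 on 0 arrays. Marker genes were also called in Mn, where 7.66% of all genes were called. There 2 of 2 progenitor, 1 of 2 neuron and 2 of 3 fibroblast genes rose, and 1 of 7 dopaminergic genes fell. In the astrocyte, oligodendrocyte and microglia lists 0 were called in Mn. The part of these shifts in the complex I values was not tested.

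In MPP+ against control, 3 of 6 assembly factors rose: Ndufaf3, Ndufaf4 and Ndufaf6. They were the only ones called of the 45 complex I genes, a share near that of all genes called higher, which was 7.47%, beside 6.47% lower and 13.9% in either direction. The median difference was 0.34 over the 6 assembly factors and -0.04 over the 39 subunits, beside 0.02 over all genes. The assembly factor median was above 0 under each scaling, from 0.34 to 0.45, and the subunit median turned to 0.02 with normexp and to 0.07 with scaling to each array's median. Of the 39 subunits 0 were called by limma, with 2 higher and 5 lower at an unadjusted p under 0.05. On both MPP+ arrays, 35.6% of the 45 genes lay above both controls and 31.1% below both, beside 34.0% and 29.4% of all genes.

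Ndufaf6, which acts early in assembly, read 1.76 and 1.84 in control, 1.70 and 1.67 in Mn, 2.55 and 2.56 in MPP+ and 1.86 and 2.03 in 3-NPA. Both MPP+ arrays stood above all 6 others. The rise over control was 1.68-fold, a difference of 0.75 ± 0.0950 (SE), limma adjusted p = 0.00697. Against Mn it was also called, at 0.87 (adjusted p = 0.00686).

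Ndufaf3 and Ndufaf4 work together in building the quinone module. Ndufaf3 read 1.16 and 1.45 in control, 1.82 and 1.66 in Mn, 1.99 and 1.92 in MPP+ and 1.20 and 1.24 in 3-NPA. The 4 arrays of Mn and MPP+ lay above the 4 of control and 3-NPA. The difference was 0.65 ± 0.125 in MPP+ (adjusted p = 0.0244), 0.43 ± 0.125 in Mn (adjusted p = 0.0951) and -0.09 in 3-NPA (adjusted p = 0.618). Between MPP+ and Mn the difference of 0.21 did not pass (adjusted p = 0.314). The 2 spots of the Ndufaf3 probe were uneven on control replicate 2, with an SD of 0.37 (0.0073 to 0.083 on the other arrays).

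Ndufaf4 read 1.28 and 1.32 in control, 1.28 and 1.34 in Mn, 1.75 and 1.81 in MPP+ and 1.35 and 1.49 in 3-NPA. The MPP+ arrays lay above all 6 others, and the 3-NPA arrays above those of control and Mn. The difference from control was 0.48 ± 0.0922 in MPP+ (adjusted p = 0.0240) and 0.12 in 3-NPA (adjusted p = 0.337), and MPP+ also exceeded Mn (0.47, adjusted p = 0.0340). The other 3 probes of Ndufaf4, above background on 6, 7 and 8 arrays, gave differences of 0.42 to 1.099 in MPP+, none of which passed when every probe was tested on its own. The one above background on 8 arrays was higher in 3-NPA in that fit (0.67, adjusted p = 0.0363), where the gene's main probe was not (0.12, adjusted p = 0.347). The 2 spots of the main probe were uneven on Mn replicate 1, with an SD of 0.36 (0.0018 to 0.246 on the other arrays). Like-named copies of Ndufaf4 in the RefSeq table number 5.

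The promoters of Ndufaf3 and Ndufaf4, which rose together, follow in the same form, from RefSeq on GRCr8. Ndufaf3 lies at chr8:118141674-118141973 on the minus strand and has no match to the 4 motifs, and Ndufaf4 lies at chr5:43401545-43401844 on the plus strand, with the NRF1 motif in capitals starting at -158 from the gene's start. Its letters there read the same on both strands.
Ndufaf3: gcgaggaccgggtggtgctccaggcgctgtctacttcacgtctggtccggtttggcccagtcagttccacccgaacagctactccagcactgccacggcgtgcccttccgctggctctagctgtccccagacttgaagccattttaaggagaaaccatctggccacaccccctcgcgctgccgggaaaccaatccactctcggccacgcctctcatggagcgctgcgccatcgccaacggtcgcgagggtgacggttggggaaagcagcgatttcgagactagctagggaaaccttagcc
Ndufaf4: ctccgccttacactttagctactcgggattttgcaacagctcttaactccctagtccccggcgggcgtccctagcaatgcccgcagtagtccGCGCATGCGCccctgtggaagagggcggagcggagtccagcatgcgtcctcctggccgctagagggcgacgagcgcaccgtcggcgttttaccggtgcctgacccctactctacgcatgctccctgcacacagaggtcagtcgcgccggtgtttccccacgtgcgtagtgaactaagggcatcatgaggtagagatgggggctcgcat

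**Figure D4:**
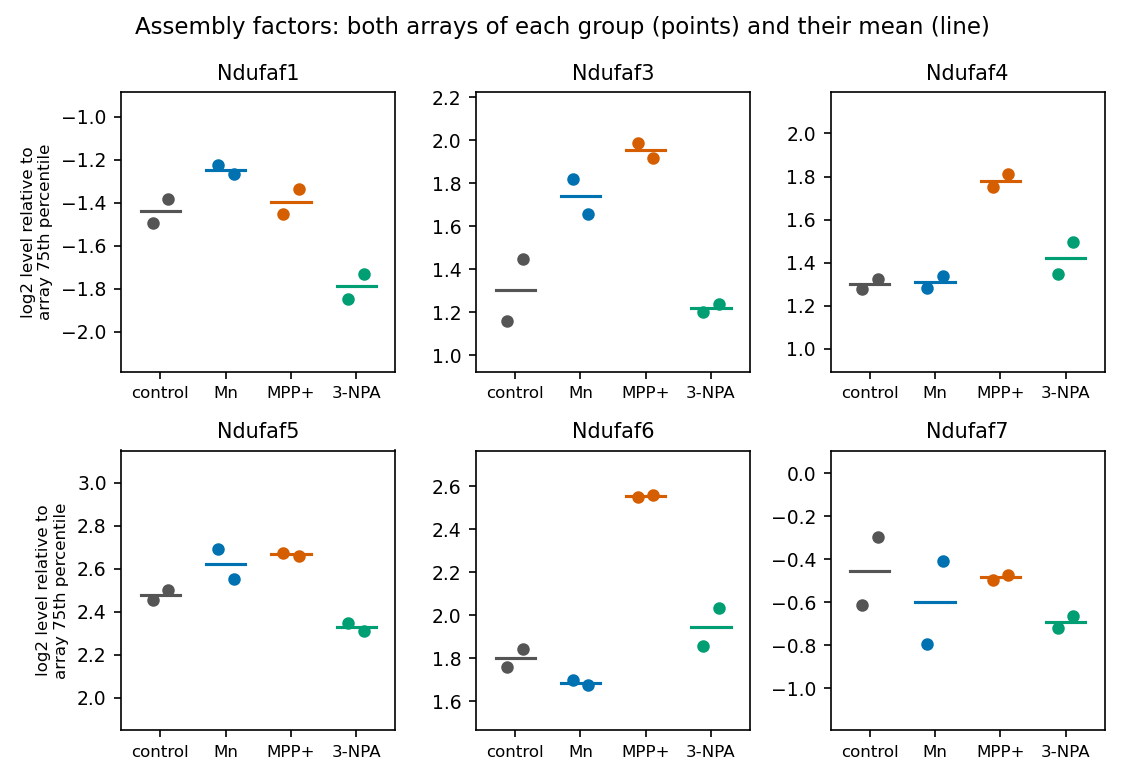
Log2 level relative to the array's 75th percentile (vertical) of the 6 assembly factors tested in each group; points are the 2 arrays and lines their mean, and vertical scales differ between panels. The MPP+ arrays stand above all others for Ndufaf3, Ndufaf4 and Ndufaf6, and the 3-NPA arrays below all others for Ndufaf1 and Ndufaf5.

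The other assembly factors did not pass in MPP+. Ndufaf5, which modifies Ndufs7, read 2.45 and 2.498 in control, 2.69 and 2.55 in Mn, 2.67 and 2.66 in MPP+ and 2.35 and 2.31 in 3-NPA. It lay above control on all 4 arrays of Mn and MPP+ and below it on both of 3-NPA, by differences of 0.14, 0.19 and -0.15, none of which passed. Ndufaf7, a methyltransferase, read -0.61 and -0.30 in control, -0.79 and -0.41 in Mn, -0.50 and -0.47 in MPP+ and -0.72 and -0.67 in 3-NPA. It differed by -0.03 in MPP+ and -0.24 in 3-NPA, less than the gap between its controls. Ndufaf1, which helps to assemble the membrane arm, read -1.49 and -1.39 in control, -1.23 and -1.27 in Mn, -1.45 and -1.34 in MPP+ and -1.85 and -1.73 in 3-NPA. Ndufaf1 was the assembly factor that fell in 3-NPA, by 0.35 on the log2 scale (adjusted p = 0.0329).

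Beyond the naming rule, the Ndufaf8 probe, for the partner of Ndufaf5, read 4.58 and 4.63 in control, 4.39 and 4.33 in Mn, 4.53 and 4.56 in MPP+ and 3.73 and 3.86 in 3-NPA. It fell with 3-NPA by 0.81 on the log2 scale (adjusted p = 0.00147), while the differences in Mn (-0.24) and MPP+ (-0.06) did not pass. Of 9 further assembly factors with names of other kinds that were tested, 0 were called against control by limma in any toxin. Of all genes, 7.66% were called in Mn, 13.9% in MPP+ and 38.3% in 3-NPA. At an unadjusted p under 0.05, 2 of these 9 were higher in MPP+ and 1 lower in Mn. Their median was 0.14 in MPP+ and -0.095 in 3-NPA. Of 13 genes of iron-sulphur cluster assembly, which supplies the clusters of the core subunits, 2 rose in MPP+ (Hspa9 and Nfu1), beside 7.47% of all genes. In 3-NPA 2 rose (Nfs1 and Nfu1), beside 22.3% of all genes. The largest of these rises was that of Hspa9, a mitochondrial chaperone, at 1.21 in MPP+ (adjusted p = 0.00295).

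Among subunits in MPP+, Ndufv2 had the largest positive difference, 0.65 ± 0.206 (adjusted p = 0.0896), on arrays that lay far apart (4.32 and 4.85). The most negative was that of Ndufa2, at -0.39 (adjusted p = 0.135). The core subunits ranged from -0.17 for Ndufs8 to 0.65 for Ndufv2. Some marker genes were called in MPP+ too, where 7.47% of all genes were called higher and 6.47% lower. In the fibroblast list 2 of 3 genes fell in MPP+, with sums of 0.70 and 0.53 in control and 0.50 and 0.46 in MPP+. Tubb3 rose in MPP+ (0.72, adjusted p = 0.0343), while Map2, the other neuronal gene tested, differed by -0.71 and did not pass (adjusted p = 0.0911). Pitx3, Aldh1l1 and Vim rose as well, Aldh1a1 fell, and 0 of 5 microglia genes were called by limma, nor was any at an unadjusted p under 0.05. Pitx3 and Aldh1a1 were above background on at most 4 and 5 arrays, so their values may lie near background. The part of these markers in the complex I values was not tested.

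The calls of MPP+ rested on few arrays. Without either MPP+ array, 0 of 45 genes were called, and without control replicate 1 or either 3-NPA array, 1. With the 4 arrays of the pair alone, or the 6 arrays of the first extraction run, 1 was called, Ndufaf6. MPP+ and control shared 2 columns of the slide. Within a column, MPP+ exceeded control by 0.79 and 0.72 for Ndufaf6, by 0.83 and 0.47 for Ndufaf3 and by 0.47 and 0.49 for Ndufaf4. With column as a fixed block over those 4 arrays, 0 of all genes were called.

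Of 45 complex I genes, 16 were lower in 3-NPA than in MPP+ and 0 higher, beside 12.9% of all genes called lower, 18.1% higher and 31.0% in either direction. With quantile normalization 14 were lower and 1 higher. The 16 held 6 of 7 core subunits, with a core median of -0.51, and 5 of 6 assembly factors, all but Ndufaf7. Ndufv1 differed by -0.52 (adjusted p = 0.0130) and Ndufs8 by -0.60 (adjusted p = 0.0186). Among assembly factors the differences were -0.73 for Ndufaf3 (adjusted p = 0.00828), -0.61 for Ndufaf6 (adjusted p = 0.00625), -0.39 for Ndufaf1, -0.36 for Ndufaf4 and -0.34 for Ndufaf5. The most negative difference of all was again that of Ndufb4l1 (-0.95, adjusted p = 0.248), and the largest positive one that of Ndufb10, a distal membrane arm subunit, at 0.14 (adjusted p = 0.273), with levels of 5.02 and 4.96 in 3-NPA and 4.88 and 4.82 in MPP+. Without MPP+ replicate 1 the count was 1, and it was 2 without MPP+ replicate 2 or without either 3-NPA array.

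3-NPA was also below Mn at 10 of 45 genes and above it at 0, beside 11.7% of all genes lower, 16.9% higher and 28.6% in either direction. These arrays share slide columns, and Ndufs8 differed by -0.58 and -0.63 within them (-0.60 in the fit, adjusted p = 0.0190). The largest positive difference was that of Ndufaf6, at 0.26 (adjusted p = 0.0934). Ndufaf1 and Ndufaf3 were the 2 assembly factors among the 10, at -0.54 and -0.52 (adjusted p = 0.00999 and 0.0266). With column as a fixed block the count was 6. Without 3-NPA replicate 1 it was 0, without replicate 2 it was 1, and without either MPP+ array it was 6.

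Between MPP+ and Mn, 3 of 45 genes were called, beside 9.10% of all genes in either direction, 4.22% higher and 4.88% lower. Ndufaf4 and Ndufaf6 were higher in MPP+, as given above. Ndufa7 was lower in MPP+, at -0.46 (adjusted p = 0.0397), with levels of -1.87 and -1.90 against -1.36 and -1.504 in Mn. Ndufb4l1 had the largest positive difference, 1.14 (adjusted p = 0.246), on the arrays given above. Without either MPP+ array 0 were called, and without any 1 array of Mn or 3-NPA, 1.

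Probes of 1 gene did not always move alike. Ndufv3, an accessory subunit of the electron input module, had 3 probes on rn4 (RGSC v3.4), the assembly of the array files. The brightest, at chr20:9960206-9960265, stood for the gene and read 5.17 and 5.20 in control, 5.07 and 4.88 in Mn, 5.10 and 5.14 in MPP+ and 4.96 and 4.80 in 3-NPA. A second probe lies at chr20:9960098-9960157 and differed from control by -0.22 to -0.04, with none called. The third, at chr20:9957258-9957317, is 2840 bases from the second and has 10 spots. It read 0.98 and 0.91 in control, 1.24 and 1.40 in Mn, 1.47 and 1.52 in MPP+ and 1.34 and 1.33 in 3-NPA, so that all 6 toxin arrays lay above both controls. With every probe tested on its own, its difference was 0.55 in MPP+ (adjusted p = 0.0194), 0.39 in 3-NPA (adjusted p = 0.0234) and 0.37 in Mn (adjusted p = 0.0739). No gene annotation of rn4 was used here, so the exons or transcripts these probes read are not given.

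**Figure D5:**
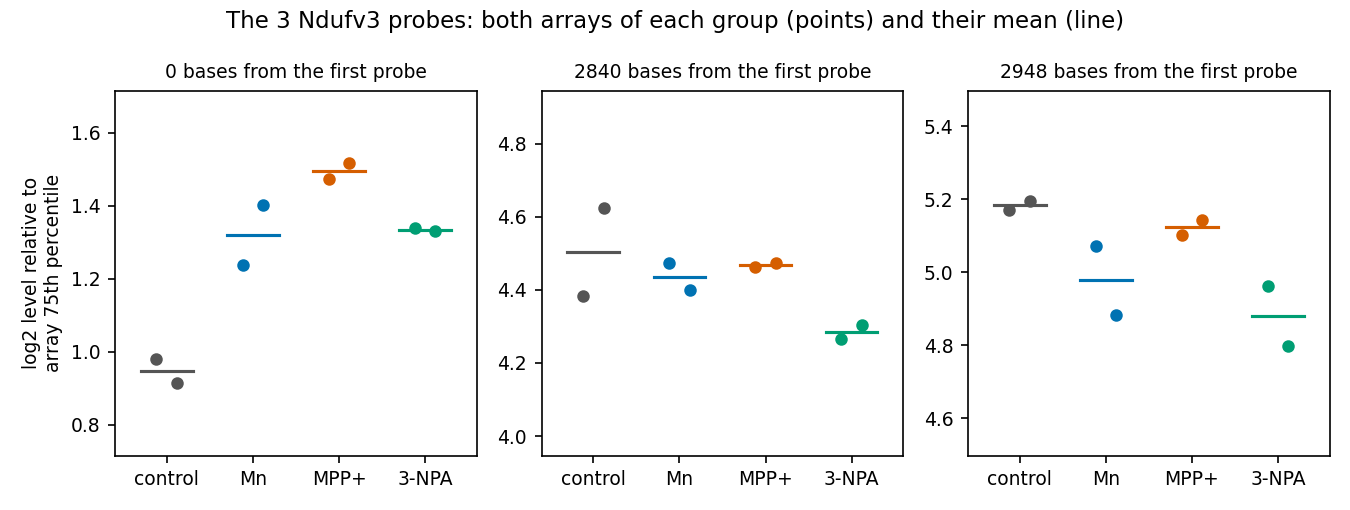
Log2 level relative to the array's 75th percentile (vertical) of the 3 Ndufv3 probes in each group; points are the 2 arrays, lines their mean, and panels are in order of distance from the first probe. The leftmost probe is higher on all 6 toxin arrays than on both controls, by 0.37 to 0.55 on average, and the other 2 are not.

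Identity is uncertain for some members. Of the 60 probes, 49 matched a RefSeq accession, and 22 of the 46 genes have like-named genes or pseudogenes there, 11 of them for Ndufb4. The accession of the Ndufs6 probes had no match, and RefSeq gives Ndufs6 as an older name of the pseudogene Ndufs6-ps1, so its values may not be those of the subunit. An entry under the symbol Ndufs6 itself is among the 39 RefSeq promoters, and which of the 2 the Ndufs6 probes read was not tested. The differences of Ndufs6 from control were 0.01 in Mn, 0.08 in MPP+ and -0.13 in 3-NPA, and none passed. The probes of Ndufs8 and Ndufv1, which both fell in 3-NPA, lie near each other on rn4, at chr1:206435873-206436371 and chr1:206590024-206590083.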

How the data were processed

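The authors deposited 1 Agilent Feature Extraction file per array (version 11.5.1.1, per the file headers), in which the processed signal is an intensity after background subtraction. They also deposited a table of log2 values, 1 column per array, with medians from -3.99 to -4.38. It followed the log2 signal of each array (r from 0.997 to 1), but how it was centred is not given in the sources used here. Per the labels, 500 ng of total RNA was labelled with Cy3.

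From these, spots marked as outliers were left out, log2(processed signal) was set against the 75th percentile of each array, and spots were averaged per probe. A probe was kept if it was well above background (over 0.5 of its spots) on both arrays of a group, and the brightest kept probe stood for its gene. Group means were fitted over all 8 arrays with limma 3.58.1 in R 4.3.3 (4 residual degrees of freedom), with Benjamini-Hochberg adjustment over 16908 genes in each comparison. Testing on simulated data preceded this. For a single value, an exact two-sided permutation test of 2 against 2 arrays cannot go below 0.333 and was not used. Of 30328 probes, 18345 matched a RefSeq accession.

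The members and lists were chosen with earlier results of these data known. Values on every array are given for called genes (up to 10 a comparison, by adjusted p), the largest difference in each direction, the core subunits, Ndufs4, Ndufa4 and each Ndufaf gene. List genes are named by smallest adjusted p, up to 3 a list, and markers that moved and genes uneven between arrays were named after their values were seen. Alternatives were the background correction, the scaling, the deposited log2 table, the filter, the probe rule, the variance model, array weights, fewer arrays, a 2-fold minimum and the replicate number as a block. The slide column as a block, uneven spots and like-named copies were added after seeing the data.

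Replicate numbers did not pair the arrays: the correlation of replicate differences between groups ran from -0.02 to 0.10, except 0.50 between Mn and 3-NPA. The arrays of Mn and 3-NPA share slide columns, but so do those of control and MPP+, where the correlation was 0.02. The reason for the higher value was not tested. The values of 1 gene are not reported here by name, though counts and medians include it.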

Additional observations from a re-analysis of the deposited data

How the results depend on the processing

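Among the counts and medians recomputed under alternatives, 215 stayed within 1.5 times the reported count or within the spread between arrays, and 63 moved. The Mn and MPP+ subunit medians changed sign under some alternatives, as given below. Of the single called genes, which were followed separately, 0 changed direction. For Mn against control, 1 gene was called with the filter on all 8 arrays, and leaving out 1 array gave 0 to 1. The Mn subunit median was 0.0117 with quantile normalization and 0.0028 with array medians (-0.1093 to -0.032 leaving out 1 array), and the assembly factor median 0.1686 with the mean over probes (0.0557 to 0.1012). For MPP+ against control, the count was 6 with normexp (5 higher, 1 lower), 5 with trended robust variances, 1 with the 4 arrays of the pair, 1 with the first extraction run, 0 at 2-fold or more, 0 with slide column as a fixed block, and 1 of 29 without probes of 1 or uneven spots. Leaving out 1 array gave 0 to 3. The MPP+ subunit median was 0.0703 with array medians (-0.064 to 0.0512 leaving out 1 array, above 0 without control replicate 2), and the assembly factor median 0.4486 with array medians and 0.1915 with no filter (0.3139 to 0.3594). For 3-NPA against control, the count was 8 with quantile normalization, 6 with the pair alone, 0 at 2-fold, 9 of 24 without genes with like-named copies, and 1 to 17 leaving out 1 array. Its subunit median was -0.1318 with quantile normalization and -0.4129 with array medians (-0.321 to -0.2609). Its assembly factor median was -0.2604 with array medians, -0.0181 with the mean over probes and -0.2005 to -0.0116 leaving out 1 array.

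For MPP+ against Mn, the count was 1 with array medians, with no filter, with the pair alone and without like-named copies, 0 at 2-fold, and 0 to 3 leaving out 1 array. For 3-NPA against Mn it was 21 with array medians, 5 with no filter, 16 with trended variances, 5 with the pair alone, 0 at 2-fold, 6 with the column as a fixed block, 6 without like-named copies and 0 to 11 leaving out 1 array. For 3-NPA against MPP+ it was 31 with array medians, 6 with no filter, 25 with array weights, 0 at 2-fold and 1 to 16 leaving out 1 array. Fits with fewer arrays have fewer residual degrees of freedom, and for the other settings the cause was not tested. With the replicate block the 6 counts were 0, 3, 15, 3, 11 and 14, in the order Mn, MPP+ and 3-NPA against control, MPP+ against Mn, 3-NPA against Mn and 3-NPA against MPP+. Scaling also moved the split of all called genes: in MPP+ from 1263 higher and 1094 lower to 1087 and 1647 with normexp, 1801 and 990 with quantile normalization and 1557 and 621 with array medians; in 3-NPA from 3767 and 2707 to 2599 and 3506 with array medians; and in Mn from 761 and 534 to 1125 and 416 with quantile normalization and 763 and 328 with array medians. With 2 arrays a group, small differences could not be detected.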
